A study of Homo sapiens with 4 samples.

Results

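The genes described here encode the first steps of T cell receptor signalling. They are 8 of the 19775 genes named on the array: the kinases LCK, FYN and ZAP70, the adaptors LAT and LCP2 (SLP-76), and PLCG1, VAV1 and PRKCQ, which act on what the adaptors gather. Every probe set annotated to 1 of these symbols alone was taken, which gave 22 of 54675 probe sets. Expression was measured on 4 oligonucleotide arrays, 1 for each combination of cell line and condition. MyLa is a line from mycosis fungoides and HH a line from cutaneous T cell lymphoma. Each was grown for 40 hours in 0.1% serum, either with 5 ng/ml of IL-32γ, a form of the cytokine interleukin-32, or without it (control), so low serum is shared by all 4 cultures. Each line stands for 1 lymphoma, and 1 array per condition leaves the IL-32γ difference within a line without a replicate check.

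When the T cell receptor binds its antigen, the Src-family kinases LCK and FYN phosphorylate the CD3 and zeta chains, to which ZAP70 then binds. ZAP70 phosphorylates LAT and LCP2, and these adaptors assemble PLCG1, which releases calcium and diacylglycerol, and VAV1, which acts on the actin cytoskeleton. PRKCQ, protein kinase C theta, answers diacylglycerol and leads to NF-κB. In T cells LCK is the main kinase of the first step, and cutaneous T cell lymphomas often lose parts of the receptor apparatus.

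Values are log2 expression per probe set, and values under 5 were treated as not measured (the floor). On each array 42.86% to 43.32% of probe sets lay at 5 or more, while 38.87% to 39.11% lay at the lowest value in the table, 2.13. Levels of different probe sets cannot be set against each other, so each one is compared across arrays alone. Of 10 T cell marker genes with a probe set, 4 were at 5 or more on both MyLa arrays and 7 on both HH arrays. CD2, CD3D, CD3G and CD247 were measured in both lines. CD3E, CD5 and CD6 were measured in HH and stood at 2.13 to 2.21 in MyLa, and CD7, CD28 and TRAT1 were below 5 on all 4 arrays. B cell markers (0 of 6) and natural killer markers (0 of 4) were below 5 throughout. Of the others, the myeloid marker ITGAM (1 of 6) and 2 of 5 fibroblast markers, COL1A1 and COL3A1, were at 5 or more on both MyLa arrays. On the HH arrays no myeloid marker and, with IL-32γ, COL1A1 (5.66) was, and the keratinocyte marker KRT10 (1 of 4) was measured on all arrays. On the IL-32γ arrays the control probe set at the 5' end of ACTB read 11.81 in MyLa and 13.58 in HH, against 10.12 in the MyLa control and 12.69 in the HH control. Its 3' partner lay between 15.07 and 15.27. What part such array differences have in the results below was not tested.

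LCK was not measured above the floor in either line. Both of its probe sets, 204890_s_at and 204891_s_at, stood at 2.13, the lowest value in the table, on the MyLa IL-32γ and control arrays and on the HH IL-32γ and control arrays. No difference with IL-32γ or between the lines can therefore be given for LCK. A reading at the lowest value is common: 34.5% of all probe sets lay there on all 4 arrays, as did both probe sets of 23.1% of the 5015 genes that have 2. Nor does it show that a transcript is absent. Among 5365 genes with a probe set at 8 or more on every array and at least 1 other, 981 (18.3%) had another at the lowest value on every array. Of the 10 nearest coding genes on chromosome 1, 6 were tested and 4 were below 5 throughout. FAM167B, next to LCK on one side, stood at 2.13 on all 4 arrays, and HDAC1, next to it on the other, read 13.47 and 13.64 in MyLa (IL-32γ, control) and 13.62 and 13.68 in HH.

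**Figure D1:**
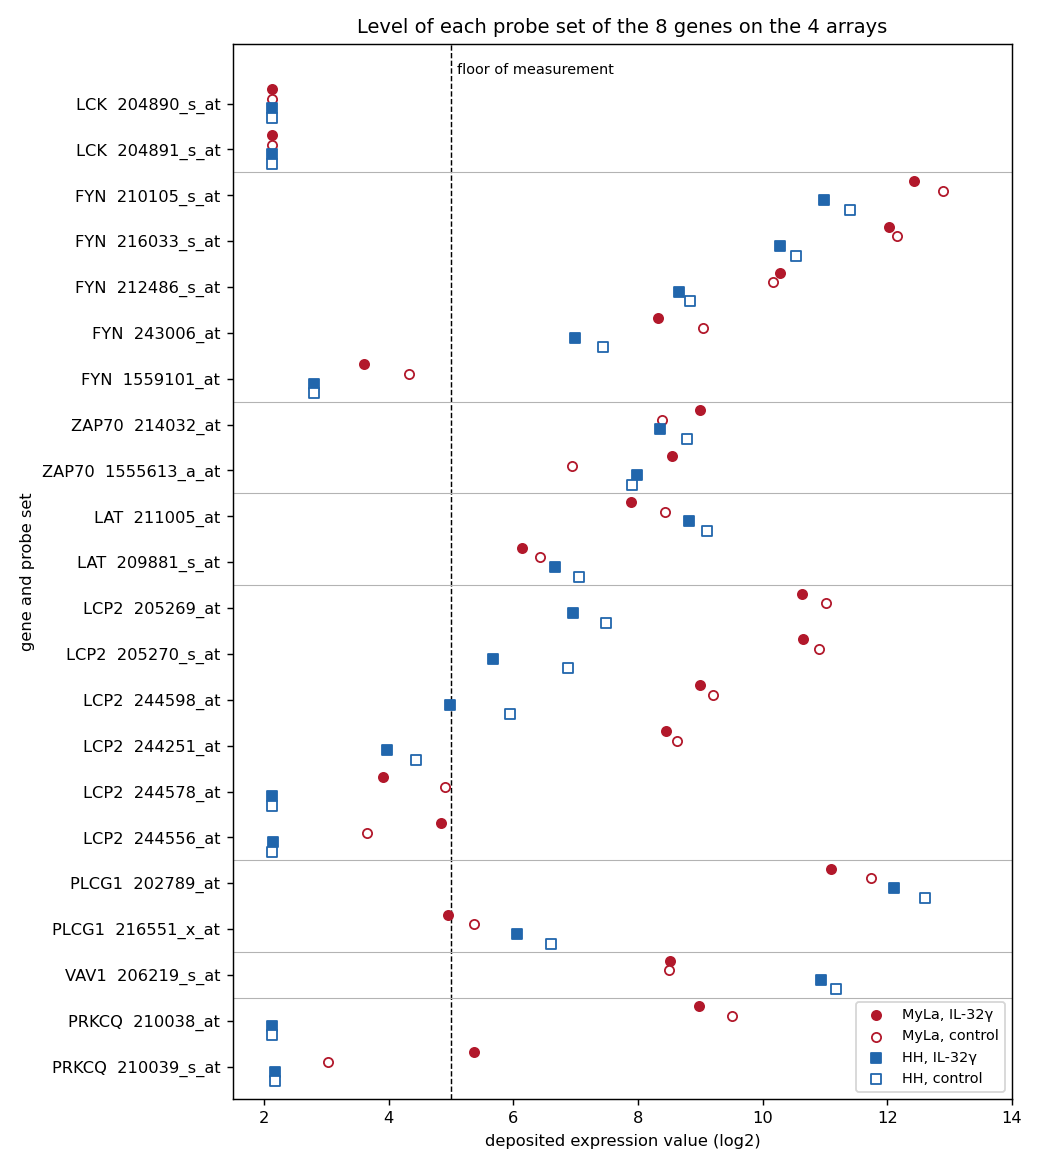
Expression value (log2, horizontal axis) of each of the 22 probe sets of the 8 genes on the MyLa IL-32γ, MyLa control, HH IL-32γ and HH control arrays, 1 point per array. LCK lies at 2.13 on every array, LCP2 and PRKCQ lie far to the right in MyLa, and VAV1 lies to the right in HH.

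Sequence upstream of the gene start is shown for the genes whose levels set the lines apart most, PRKCQ, LCP2 and VAV1, and for LCK, which was below the floor and has 2 starts in RefSeq. Each run holds the 250 bases before a start, 5' to 3' on the strand of the gene, from RefSeq on GRCh38.p14, where all 8 genes had at least 1 such window. Capitals mark GGAAG, the core of sites for ETS factors, on either strand. The windows are LCK at chr1:32251015-32251264 and chr1:32273871-32274120 (forward strand), PRKCQ at chr10:6580647-6580896 (reverse strand), LCP2 at chr5:170297778-170298027 (reverse strand) and VAV1 at chr19:6772458-6772707 (forward strand).
LCK, first start: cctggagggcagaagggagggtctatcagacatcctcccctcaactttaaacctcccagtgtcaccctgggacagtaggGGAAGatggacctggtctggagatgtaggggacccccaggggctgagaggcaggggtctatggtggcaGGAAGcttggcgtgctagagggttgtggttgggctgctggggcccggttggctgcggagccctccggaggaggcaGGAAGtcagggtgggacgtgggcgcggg
LCK, second start: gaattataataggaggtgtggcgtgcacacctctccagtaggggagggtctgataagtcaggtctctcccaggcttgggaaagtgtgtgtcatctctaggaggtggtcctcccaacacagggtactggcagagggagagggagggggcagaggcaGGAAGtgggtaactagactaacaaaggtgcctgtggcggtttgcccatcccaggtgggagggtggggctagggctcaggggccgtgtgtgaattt
PRKCQ: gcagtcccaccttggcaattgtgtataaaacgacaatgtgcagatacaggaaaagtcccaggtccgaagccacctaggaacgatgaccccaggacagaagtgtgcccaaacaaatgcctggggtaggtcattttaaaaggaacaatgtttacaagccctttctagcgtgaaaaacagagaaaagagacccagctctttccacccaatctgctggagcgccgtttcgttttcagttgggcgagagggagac
LCP2: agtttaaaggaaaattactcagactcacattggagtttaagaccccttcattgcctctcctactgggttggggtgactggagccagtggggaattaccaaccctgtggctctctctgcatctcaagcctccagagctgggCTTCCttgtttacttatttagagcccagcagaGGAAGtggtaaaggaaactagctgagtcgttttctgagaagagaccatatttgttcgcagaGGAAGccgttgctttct
VAV1: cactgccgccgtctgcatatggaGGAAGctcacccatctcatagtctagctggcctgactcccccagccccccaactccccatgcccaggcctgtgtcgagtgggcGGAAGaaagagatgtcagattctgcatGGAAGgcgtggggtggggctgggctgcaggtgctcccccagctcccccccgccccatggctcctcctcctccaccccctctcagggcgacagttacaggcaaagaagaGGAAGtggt

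GGAAG occurred 4 times before the VAV1 start, the nearest beginning at -9, and 3 times before the LCP2 start, the nearest at -17. It occurred 3 times before the first LCK start and 1 time before the second, and 0 times before PRKCQ. Of all 35116 such windows 65.1% held it. The RUNX motif TGTGGT was found before the first LCK start alone among these 5 windows, against 11.0% of all windows. The E box CAGNTG was found before the second LCK start, PRKCQ and VAV1, against 42.5% of all windows. Both strands were searched, the motifs were chosen after the values were known, and a match is no evidence of binding. So VAV1, high in HH, LCP2, high in MyLa, and the unmeasured LCK all carry the ETS core.

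Between the lines, 4 of the 8 genes were called different. On values measured in both lines, LCP2 and FYN were higher in MyLa and VAV1 was lower in MyLa. PRKCQ was called higher in MyLa but was measured there alone. By the brightest probe set ZAP70, LAT and PLCG1 did not pass the test, and LCK was not measured. The lines were compared with limma (2 residual degrees of freedom), p-values were adjusted over 25306 probe sets, and a call needed an adjusted p under 0.05 and a 2-fold difference. Within a line the IL-32γ and control arrays served as the pair of replicates, so their spread includes any response to IL-32γ. By the probe set with the highest mean, 3 of 7 tested genes were called higher in MyLa, where 18.6% of 11010 genes were, and 1 lower, where 16.6% were. Over probe sets, 9 of the 16 tested were called higher (18.2% of all) and 2 lower (16.8%). Those 9 belong to 3 genes, 4 to FYN, 4 to LCP2 and 1 to PRKCQ, and are not separate findings. The median difference of the 7 genes was 0.12, against 0.03 over all tested genes. PRKCQ and the LCP2 probe set 244251_at passed the filter on low values through their MyLa arrays alone. They could only come out higher there, so their calls, included in the counts above, are no evidence of a difference.

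LCP2 encodes SLP-76, the adaptor that holds PLCG1 and VAV1 together. Its brightest probe set, 205269_at, read 10.63 (IL-32γ) and 11.02 (control) in MyLa, against 6.96 (IL-32γ) and 7.48 (control) in HH. Both MyLa arrays lay far above both HH arrays. MyLa averaged 10.82 ± 0.27 and HH 7.22 ± 0.37 (SD, n = 2 each), a difference of 3.60 ± 0.26 (SE) or 12.1-fold (limma adjusted p = 0.00207). The probe set 205270_s_at gave 22.6-fold (adjusted p = 0.00482), 244598_at at least 12.3-fold (adjusted p = 0.00476) and 244251_at, below 5 on both HH arrays, at least 11.6-fold. The last of these could only come out higher in MyLa once it was tested, since its HH values were raised to the floor. The remaining probe sets of LCP2, 244578_at and 244556_at, were below 5 throughout. The 3 probe sets measured on an HH array thus put LCP2 more than 10 times higher in MyLa. With 1 array fewer the difference lay between 3.34 and 3.86, with an adjusted p of 0.0472 without the MyLa IL-32γ array, 0.0528 without the MyLa control, 0.0589 without the HH IL-32γ array and 0.0514 without the HH control.

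PRKCQ was measured in MyLa and not in HH. Its probe set 210038_at read 8.98 (IL-32γ) and 9.50 (control) in MyLa, and 2.13, the lowest value, on both HH arrays. The MyLa mean of 9.24 ± 0.37 (SD, n = 2) was at least 18.9-fold above the floor of 5 (log2 difference 4.24). The HH values were raised to the floor, which sets their spread to 0 and fixes the direction, so no p is given. With both probe sets averaged the difference was 1.72. The other probe set, 210039_s_at, read 5.37 (IL-32γ) and 3.03 (control) in MyLa and 2.17 on both HH arrays, and was not tested.

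FYN, the Src-family kinase that shares its substrates with LCK, was measured in both lines and higher in MyLa. Its probe set 210105_s_at read 12.43 (IL-32γ) and 12.90 (control) in MyLa, against 10.99 (IL-32γ) and 11.40 (control) in HH. The MyLa values lay above the HH values on every array, by 1.47 ± 0.25 (SE) or 2.78-fold (limma adjusted p = 0.0161). The other measured probe sets, 216033_s_at (3.20-fold, adjusted p = 0.00313), 212486_s_at (2.77-fold, adjusted p = 0.00324) and 243006_at (2.76-fold, adjusted p = 0.0307), differed by nearly the same amount, and 1559101_at was below 5. The call on 210105_s_at was lost without any 1 of the arrays. Its adjusted p was then 0.0803 without the MyLa IL-32γ array, 0.115 without the MyLa control, 0.157 without the HH IL-32γ array and 0.118 without the HH control.

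VAV1, the exchange factor that binds LCP2, was the 1 gene of the 8 called lower in MyLa. Its single probe set, 206219_s_at, read 8.52 (IL-32γ) and 8.50 (control) in MyLa, against 10.93 (IL-32γ) and 11.17 (control) in HH. The lines did not overlap: MyLa averaged 8.51 ± 0.01 and HH 11.05 ± 0.17 (SD, n = 2 each). The difference was -2.54 ± 0.14 (SE), so that HH was 5.81-fold above MyLa (limma adjusted p = 0.00103). The call held when any 1 array was left out, with an adjusted p of 0.0274 to 0.0355.

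PLCG1, the phospholipase that cuts membrane phosphoinositide into calcium-releasing and diacylglycerol messengers, lay lower in MyLa on both probe sets. The brighter, 202789_at, read 11.10 (IL-32γ) and 11.74 (control) in MyLa, against 12.10 (IL-32γ) and 12.60 (control) in HH. Its difference of -0.93 ± 0.32 (SE) did not pass (limma adjusted p = 0.0806), while the weaker 216551_x_at, at 4.95 and 5.36 in MyLa and 6.06 and 6.60 in HH, was called lower (-1.15 ± 0.26 SE, adjusted p = 0.0311). LAT, the membrane adaptor, read 7.89 (IL-32γ) and 8.43 (control) in MyLa, against 8.82 (IL-32γ) and 9.10 (control) in HH on 211005_at. All MyLa values of LAT were below all HH values, yet the difference of -0.80 ± 0.25 (SE) did not pass (adjusted p = 0.0653), nor did that of 209881_s_at (-0.58, adjusted p = 0.0878).

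ZAP70, the kinase that binds the phosphorylated receptor chains, could not be told apart between the lines. Its probe set 214032_at read 8.99 (IL-32γ) and 8.38 (control) in MyLa, against 8.35 (IL-32γ) and 8.79 (control) in HH. The values of the 2 lines overlapped, with a difference of 0.12 ± 0.30 (SE, limma adjusted p = 0.762). The second probe set, 1555613_a_at, read 8.55 and 6.94 in MyLa and 7.98 and 7.91 in HH (-0.20 ± 0.60 SE, adjusted p = 0.796). On the control arrays ZAP70 was lower in MyLa, by 0.41 and 0.98 for the pair of probe sets, and on the IL-32γ arrays higher, by 0.64 and 0.57.

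With IL-32γ, ZAP70 alone of the 7 measured genes was past 1.5-fold on the higher side in MyLa by the brightest probe set. With probe sets averaged PRKCQ passed it too, at 0.91. The ZAP70 probe set 214032_at read 8.99 with IL-32γ in MyLa against 8.38 in the control, a difference of 0.62 or 1.53-fold. The second, 1555613_a_at, gave 8.55 against 6.94, a difference of 1.62 or 3.07-fold. In HH the same probe sets gave 8.35 against 8.79 in the control (-0.44) and 7.98 against 7.91 (0.07). Both probe sets were higher with IL-32γ in MyLa, by different amounts, and the MyLa control value of 6.94 was the lowest of the 4 arrays on 1555613_a_at. Each line has 1 array per condition, so these are values with no test.

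Most other measured values of the 8 genes lay somewhat lower with IL-32γ. In MyLa 12 of 17 measured probe sets lay below 0, and in HH 13 of 14. Over all measured probe sets 55.5% lay below 0 in MyLa and 55.1% in HH. Probe sets of 1 gene are not separate values. Counted by gene on the brightest probe set, 5 of 7 lay below 0 in MyLa, where 59.1% of all measured genes did. In HH 6 of 6 did, against 65.9%. By the brightest probe set the median of the members was -0.47 over 7 genes in MyLa and -0.43 over 6 genes in HH, against -0.068 over all measured genes in each line. With probe sets averaged, MyLa gave PLCG1 -0.52, LAT -0.41, FYN -0.38, LCP2 -0.14, VAV1 0.02, PRKCQ 0.91 and ZAP70 1.12. HH then gave PLCG1 -0.52, LAT -0.34, FYN -0.26, VAV1 -0.24 and ZAP70 -0.19. PLCG1 read 11.10 with IL-32γ against 11.74 in the control in MyLa (-0.64, 0.642 of control), and 12.10 against 12.60 in HH (-0.50). It was the 1 gene of 7 past 1.5-fold on the lower side in MyLa, where 7.65% of 10497 genes were, and ZAP70 the 1 on the higher side, where 7.77% were. In HH 0 of 6 genes passed 1.5-fold, against 1.14% higher and 4.46% lower among 10307 genes.

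For LCP2 the reading depends on the probe set. In MyLa its 4 measured probe sets lay between -0.38 and -0.17. In HH 205269_at gave -0.52, 205270_s_at gave 5.67 with IL-32γ against 6.88 in the control (-1.21, 0.432 of control), and 244598_at read 4.99 against 5.95, which gives a bound of -0.95 because the first is below the floor. These 2 were the probe sets past 1.5-fold in HH, of 14 measured, where 4.02% of all probe sets were lower and 5.45% higher. In MyLa the probe sets past it were 202789_at of PLCG1 and 243006_at of FYN on the lower side (2 of 17, against 9.13% of all) and both of ZAP70 on the higher side (2 of 17, against 11.0%).

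FYN gave -0.47 in MyLa and -0.42 in HH on 210105_s_at, but 0.11 and -0.18 on 212486_s_at, so its direction in MyLa varied with the probe set. LAT gave -0.54 in MyLa and -0.28 in HH on 211005_at, and -0.28 and -0.40 on 209881_s_at. VAV1 was nearly level, at 0.02 in MyLa and -0.24 in HH. PRKCQ gave -0.53 in MyLa on 210038_at, while 210039_s_at, below 5 on the MyLa control array, gave at least 0.37.

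**Figure D2:**
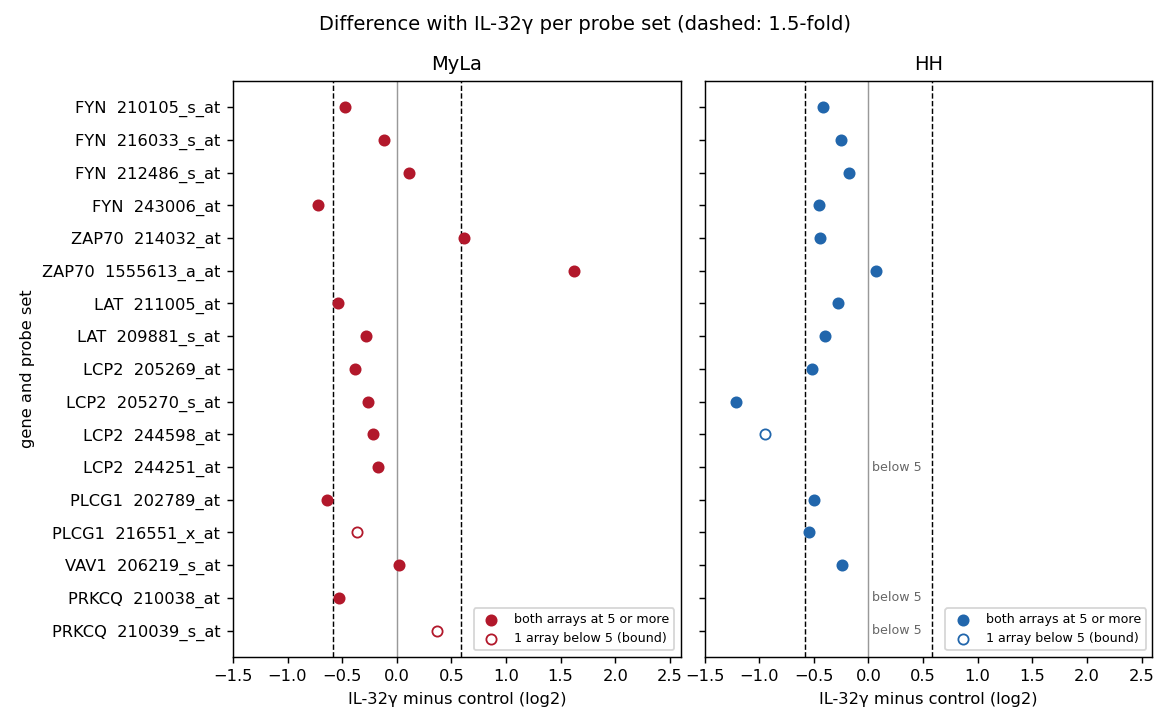
IL-32γ minus control (log2, horizontal axis) for each probe set of the 8 genes measured in at least 1 line, in MyLa on the left and HH on the right. Open points are bounds because 1 array was below 5, and dashed lines mark 1.5-fold. Both ZAP70 points lie to the right in MyLa, at 0.62 and 1.62, and 13 of the 14 HH points lie below 0.

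Across the lines, with the line as a block and 1 residual degree of freedom, limma called 0 of 25306 probe sets (0.0%). Before adjustment, 131 of 11010 genes lay higher with IL-32γ (1.19%) and 633 lower (5.75%) at the 0.05 level. Of the 7 tested genes, 3 were among the lower ones by the brightest probe set. They were PLCG1 (-0.57 ± 0.13 SE), FYN (-0.44 ± 0.13 SE) and LCP2 (-0.45 ± 0.13 SE), with limma adjusted p-values of 0.483, 0.483 and 0.484. On these probe sets each was lower in 2 of 2 lines, and none passes the correction. With probe sets averaged PLCG1 gave -0.52, FYN -0.32 and LCP2 -0.07 (adjusted p = 0.542, 0.55 and 0.831). The FYN probe set 212486_s_at gave -0.03 ± 0.15 (SE, adjusted p = 0.936). ZAP70 gave 0.09 ± 0.32 (SE, adjusted p = 0.919), its lines going opposite ways.

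The genes around these 8 in the pathway were read from a list of 69, of which 64 had a probe set, 14 were below 5 on all arrays and 50 were tested between the lines. By the brightest probe set 14 of the 50 were called higher in MyLa and 16 lower, and 20 were not called. Of these, 10 genes passed the filter on low values through the arrays of 1 line alone, 5 through MyLa and 5 through HH. Their other line was raised to the floor with no spread, so the direction of their difference was fixed. The call was not, as LAT2 was not called. These genes make up 4 of the 14 higher calls and 5 of the 16 lower ones. For them levels and bounds are given below, with no p. The 40 genes measured in both lines gave 10 higher and 11 lower. The median of the 50 was -0.42, against 0.03 over all genes. Over all genes 18.6% were called higher and 16.6% lower. The list was chosen with earlier results of these data known. Leaving out 1 array gave 10 to 13 genes called higher and 9 to 14 lower, and 13 of the 30 calls were lost without at least 1 of the arrays.

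Of 6 tested receptor and coreceptor genes, 1 was higher and 2 were lower in MyLa. CD8A, the coreceptor of cytotoxic T cells, read 11.08 (IL-32γ) and 11.05 (control) in MyLa and 2.13 on both HH arrays, at least 66.9-fold higher. CD4, the coreceptor of helper cells, read 2.27 and 2.13 in MyLa, against 12.84 and 13.04 in HH, and CD3E read 2.13 on both MyLa arrays, against 10.72 and 10.77 in HH, differences of at least -7.94 and -5.75. All 3 were measured in 1 line alone. CD8 and CD4 are the receptors to which LCK binds, and 1 of them was measured in each line. CD3D, CD3G and CD247 were measured in both lines and none was called, with differences of -0.40, -0.93 and -0.43. CD3G had an adjusted p of 0.0252 but did not reach 2-fold.

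All 5 genes listed here as controlling LCK and FYN were called, 2 higher in MyLa (18.6% of all genes) and 3 lower (16.6%). CSK, the kinase that phosphorylates the inhibitory tyrosine of Src kinases, was 3.88-fold higher (limma adjusted p = 0.00233), and PAG1, the membrane anchor of CSK, read 13.40 and 13.37 in MyLa against 8.93 and 8.82 in HH (22.8-fold, adjusted p = 0.000207). PTPRC (CD45), the phosphatase that removes the same phosphate, was lower in MyLa (-2.98 ± 0.18 SE, adjusted p = 0.00134). So were PTPN22 (-1.97 ± 0.25 SE, adjusted p = 0.00759) and PTPN6 (SHP-1, -1.18 ± 0.16 SE, adjusted p = 0.00869). With no floor PTPN22 and PTPN6 were not called (adjusted p = 0.0758 and 0.0639). The calls of PAG1 and CSK held without any 1 array (adjusted p at most 0.0498). Without either HH array the calls of PTPRC, PTPN22 and PTPN6 were lost, with an adjusted p of up to 0.0654, 0.132 and 0.115.

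Of 11 tested adaptors 4 were higher and 3 lower in MyLa. SH2D2A (TSAd), which binds LCK, read 9.06 and 9.04 in MyLa and below 5 in HH (at least 16.6-fold), SIT1 was 10.5-fold higher (adjusted p = 0.000817), and the Ras activators SOS1 (2.70-fold, adjusted p = 0.00526) and SOS2 (3.38-fold, adjusted p = 0.00128) were higher too. LAX1, measured in HH alone (at least -2.71), the actin regulator WAS (-2.26, adjusted p = 0.00299) and THEMIS (-1.61, adjusted p = 0.0016) were lower. The calls of SOS1 and WAS were lost without either HH array (adjusted p up to 0.0919 and 0.0832). GRB2 (-0.30), NCK1 (-0.68), NCK2 (-0.72) and SKAP1 (-0.39) were not called, and GRAP, FYB1 and TRAT1 were below 5 throughout. TXK and TEC, both Tec-family kinases, were below 5 as well.

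Of 9 tested negative regulators 3 were higher and 4 lower in MyLa. UBASH3B, a phosphatase acting on ZAP70 and SYK, read 9.22 and 9.34 in MyLa and 2.13 in HH (at least 19.4-fold), the ubiquitin ligase CBLB was 3.08-fold higher (adjusted p = 0.00517) and UBASH3A 2.05-fold (adjusted p = 0.0444). SLA, an adaptor that lowers receptor levels, read 2.13 on both MyLa arrays, against 12.83 and 12.97 in HH (at least -7.90). DOK2, also measured in HH alone (at least -5.56), DOK1 (-1.92, adjusted p = 0.00136) and DGKZ, which removes diacylglycerol (-2.01, adjusted p = 0.0154), were lower too. CBL (-1.08) and DGKA (-0.92) were not called. The call of CBLB was lost without either HH array (adjusted p up to 0.0962), that of DGKZ without either MyLa array (0.151) and that of UBASH3A without any 1 array (up to 0.286). With all its probe sets averaged UBASH3B gave 0.75 (adjusted p = 0.0537) and was not called, and without shared probe sets DGKZ gave -0.78 (0.0972). UBASH3B was thus measured in MyLa alone, and SLA and DOK2 in HH alone, while SLA2 was below 5 throughout.

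Among 11 tested effectors, 8 were not called, including RASGRP1 (-0.96), MAP4K1 (0.19), BCL10 (-0.26), MALT1 (0.48) and STIM1 (-0.31). ORAI1, the calcium channel of the plasma membrane, read 10.16 and 10.44 in MyLa against 6.91 and 7.61 in HH (8.23-fold, adjusted p = 0.00407), and the calcium release channel ITPR1 was 5.00-fold higher (adjusted p = 0.00116). Its relative ITPR3 was lower (-2.45, adjusted p = 0.00496). The call of ORAI1 was lost without either MyLa array or the HH IL-32γ array (adjusted p up to 0.0809), and that of ITPR3 without either MyLa array (up to 0.0865) and with its probe sets averaged (-0.88, under 2-fold).

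Of 15 relatives of the 8 genes with a probe set, 7 were below 5 throughout and 8 were tested. Among Src-family kinases, LYN, known from B and myeloid cells, read 8.17 and 8.39 in MyLa and 2.24 on both HH arrays (at least 9.69-fold). BLK, a kinase of B cells, read 6.57 (IL-32γ) and 4.39 (control) in MyLa, against 11.14 and 11.16 in HH (at least -5.36, adjusted p = 0.00548). YES1 was measured in both lines and not called (-0.97), and SRC and FGR were below 5. So FYN and YES1 were measured on all 4 arrays, LYN on the MyLa arrays alone, and BLK on both HH arrays and the MyLa IL-32γ array. SYK, the relative of ZAP70, stood at 2.13 on all 4 arrays. PRKCA was 10.8-fold higher in MyLa (adjusted p = 0.000361), PRKCD (0.499-fold) and LAT2 (at least 0.62) were not called, and PRKCB and PRKCH were below 5. PLCG2, the relative of PLCG1 used by B cells, was lower in MyLa (at least -3.68, adjusted p = 0.00655) and so was VAV2 (-1.05, adjusted p = 0.0186), while VAV3 was below 5. The call of BLK was lost without either HH array (adjusted p up to 0.123), that of PLCG2 without either HH array or the MyLa IL-32γ array (up to 0.125), and that of VAV2 without any 1 array (up to 0.172). With probe sets averaged LYN gave 0.43 (adjusted p = 0.183) and PLCG2 -0.15 (0.324), and neither was called.

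**Figure D3:**
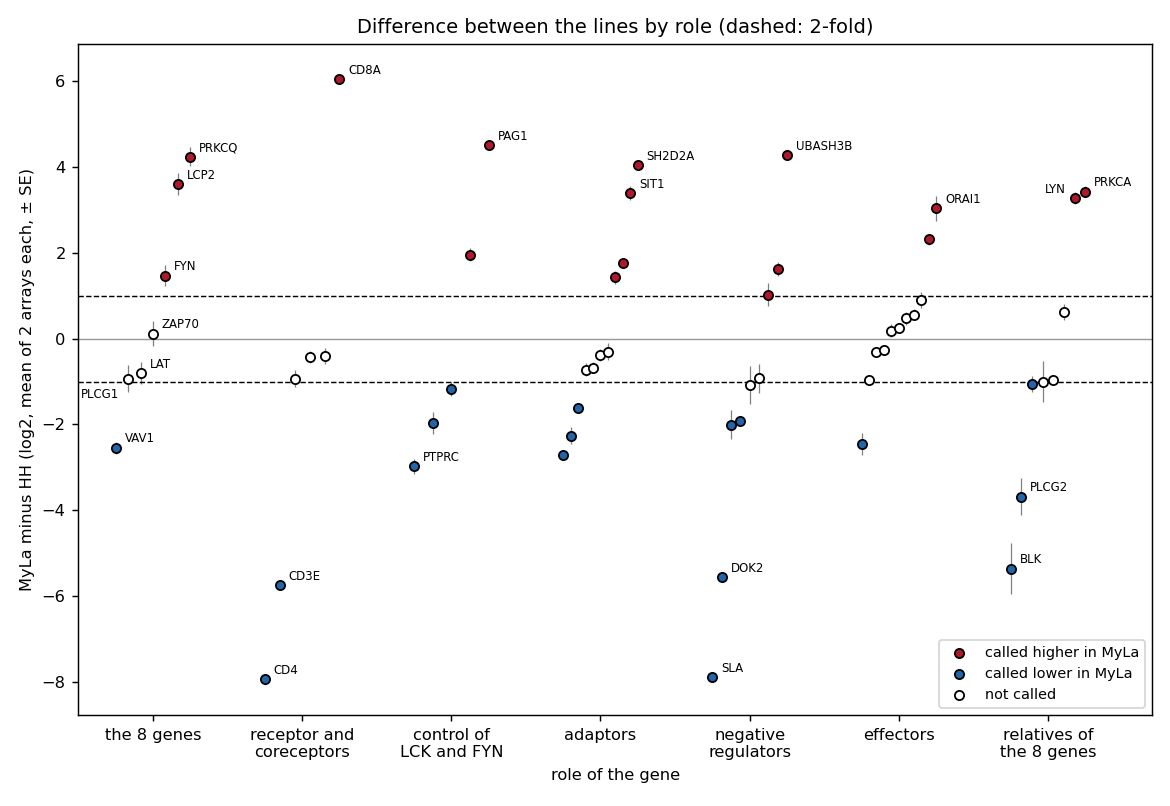
MyLa minus HH (log2, vertical axis; mean of the 2 arrays of each line, bars ± SE of the limma fit) for the tested genes of the 8 and of the pathway list, grouped by role. Filled points passed an adjusted p of 0.05 and 2-fold. Called genes lie on both sides in each role, among the 8 genes 3 above and 1 below, and values set by the floor of 5 are bounds.

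With IL-32γ the counts of pathway genes past 1.5-fold, by the brightest probe set, were as follows. In MyLa 3 of 45 measured were higher, where 7.77% of all genes were, BLK (at least 1.57), CBL (1.14) and UBASH3A (0.62). On the lower side there were 4, where 7.65% of all genes were, PRKCD (-1.21), PLCG2 (at least -1.05), DGKA (-0.82) and PTPN22 (-0.61). The other measured probe sets of CBL lay at 0.23 to 0.62 and that of DGKA at -0.01. With a floor of 6 BLK gave 0.57 and PLCG2 -0.05, and with probe sets averaged CBL gave 0.45, DGKA -0.42 and PTPN22 -0.33, all within 1.5-fold. In HH 0 of 45 were higher (1.14% of all genes) and 3 lower (4.46%), DGKZ (-0.88), ORAI1 (-0.70) and ITPR3 (-0.62, or -0.22 with probe sets averaged). The medians were -0.09 in MyLa and -0.12 in HH. No gene passed 1.5-fold in both lines, and each value rests on 1 array per condition.

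Around PRKCQ on chromosome 10, several neighbours showed the same split between the lines. The 5 nearest coding genes with a probe set on each side were read in RefSeq order for all 8 genes, a choice made after the values of PRKCQ were seen. Of its 10 neighbours 8 were tested, and 4 were higher in MyLa and 0 lower, against 18.6% and 16.6% of all genes. SFMBT2, next to it on one side, read 9.61 and 10.20 in MyLa and 2.13 on both HH arrays (at least 4.90). PFKFB3, next to it on the other, read 12.73 and 12.96 in MyLa, against 5.63 and 6.44 in HH (6.81, limma adjusted p = 0.000796). IL2RA, the alpha chain of the IL-2 receptor, read 13.12 and 12.56 in MyLa, against 2.70 and 2.39 in HH, and IL15RA 11.72 and 11.81 in MyLa, against 8.78 and 9.31 in HH. SFMBT2 and IL2RA passed the filter through the MyLa arrays alone and so could only come out higher there. RBM17, which lies between PFKFB3 and IL2RA, read 12.73 and 12.59 in MyLa against 12.07 and 12.11 in HH. Its difference of 0.57 (limma adjusted p = 0.0236) was under 2-fold and not called. FBH1 (0.39), KIN (0.33) and ATP5F1C (0.09) were not called either. The called genes were thus not consecutive, although RBM17 also lay lower in HH. What links the PRKCQ neighbours was not tested.

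**Figure D4:**
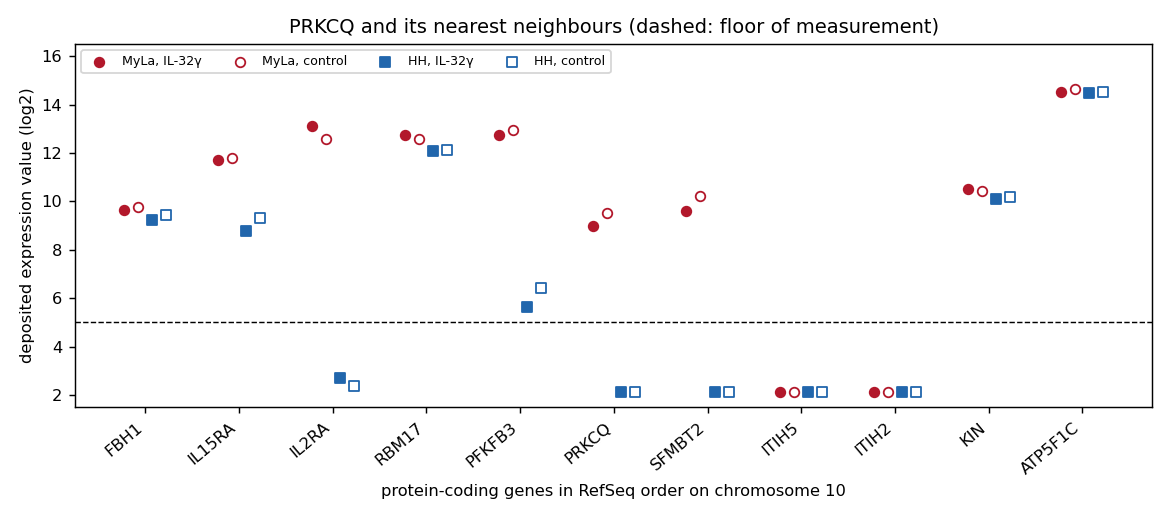
Expression value (log2, vertical axis) of PRKCQ and the 5 nearest protein-coding genes with a probe set on each side, in chromosome order, 1 point per array. IL15RA, IL2RA, PFKFB3, PRKCQ and SFMBT2 lie lower on both HH arrays, while RBM17 between them differs by 0.57 between the lines.

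A count on 1 side was not particular to PRKCQ. Of 7 tested neighbours of VAV1, 4 were lower in MyLa and 0 higher, and of 8 of PLCG1, 3 lower and 0 higher. LCP2 had 3 tested neighbours, 1 lower, and FYN 8, 1 higher and 1 lower. The neighbours of LCK gave 1 higher, BSDC1, and 1 lower, MARCKSL1, among 6 tested. TNFSF14 near VAV1, SLC16A10 near FYN and MARCKSL1 near LCK passed the filter through the HH arrays alone. They could only come out lower in MyLa, and the counts include them.

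The genes whose values ran most like the called ones over the 4 arrays were sought among 11009 others, by the root mean square difference of values centred on their own mean. For FYN these were BBS7 (0.043) and ZSCAN9 (0.046), for LCP2 MYCBPAP (0.046) and S100A13 (0.065), for VAV1 ITGB4 (0.028) and RECQL4 (0.030), and for PRKCQ GREB1L (0.030) and FHAD1-AS1 (0.043). Some of these matches are set in part by the floor. ITGB4 read 2.58 on both MyLa arrays and MYCBPAP 4.08 on the HH IL-32γ array. PRKCQ, GREB1L and FHAD1-AS1 were below 5 on both HH arrays. The likeness rests on 4 arrays and is a description alone.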

How the data were processed

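The deposited table holds 1 column for each of the 4 arrays, and each was matched to its sample by its name. Values are log2 expression per probe set that the authors deposited after GCRMA, per the submitters' processing notes. The log2 scale was read from the values, which run from 2.13 to 16.0. Neither the version of GCRMA nor joint normalisation of the arrays is stated in the labels. Total RNA was labelled with biotin, per the labels.

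Symbols came from the annotation of the array, updated through Entrez identifiers with RefSeq (GRCh38.p14). Of the probe sets, 41097 had 1 symbol, 1801 several and 11777 none listed, and 41043 of the first were matched. The probe set with the highest mean stood for a gene. Values below 5 were raised to 5, which makes a fold against such a value a bound. Probe sets at 5 or more on at least 2 arrays entered limma 3.58.1 in R 4.3.3, and those at 5 or more on 1 of 2 arrays entered the difference within a line. Tests were two-sided with Benjamini-Hochberg adjustment over all 25306 probe sets, and were tested on simulated data. Tables were handled in Python 3.11.15 with pandas 2.3.3. The 8 genes, the pathway list and the markers were chosen with earlier results of these data known. All probe sets of the 8 genes, the pathway genes called or past 1.5-fold, further ones by role, and the 2 genes most like each called member were named. Nothing in the labels says that the 2 arrays of a line are separate cultures of 1 condition, and fewer cells and less RNA per cell cannot be told apart. Results were recomputed with a floor of 4, of 6 or without one, after quantile normalisation or median centring, with all probe sets of a gene averaged, without probe sets marked as shared, at other fold limits, with a trend on intensity, with another block, and without each array in turn.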

Additional observations from a re-analysis of the deposited data

Results flagged for a closer look

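ZAP70 lay on opposite sides of 0 in the 2 lines with IL-32γ on its brighter probe set, 214032_at, at 0.62 in MyLa and -0.44 in HH, each past 1.2-fold. The difference between these differences was 1.05 (log2). It was not tested, since each line has 1 array per condition. The second probe set, 1555613_a_at, gave 1.62 in MyLa and 0.07 in HH. With the mean of its probe sets ZAP70 stood at 1.12 in MyLa.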

How the results depend on the processing

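Each result was recomputed under the alternatives. LCP2, VAV1 and FYN kept the direction of their difference between the lines wherever it could be computed. So did PRKCQ, not measured in HH, whose direction was fixed once its values were raised to the floor. The calls of FYN and LCP2 were lost with some arrays left out, as given above, and that of PRKCQ without either HH array. FYN was not called with no floor (limma adjusted p = 0.119). With 1 array left out, 0 to 2 of the 8 genes were called higher, 794 to 1570 genes were called higher and 900 to 1437 lower, and 9 to 14 pathway genes lower, since 1 residual degree of freedom was left. ZAP70 then lay between -0.19 and 0.43, at -0.41 on the control arrays alone and at -0.04 as a mean of probe sets. With that mean, 2 of the 8 genes were lower in MyLa between the lines, PLCG1 being added (-1.05, adjusted p = 0.0389). The mean also put 2 higher and 0 lower with IL-32γ in MyLa, 287 genes lower in HH, and PRKCQ at 0.45 across lines, at 0.91 in MyLa and at 1.72 between the lines. Without shared probe sets 0 of the 8 were called lower, as VAV1 then had none, and 2 were lower with IL-32γ in MyLa. With no floor, 241 genes were higher and 720 lower in HH, and 9 pathway genes lower between lines. At 1.3-fold 1418 genes were higher and 1836 lower in MyLa, 282 and 1259 in HH, and 5 and 4 of the 8 lower in MyLa and HH. At 2-fold 280 and 163 genes passed in MyLa, 22 and 72 in HH, and 0 of the 8 higher and 0 lower in MyLa. Between lines, no fold minimum gave 2792 genes lower, and 4-fold gave 1089 higher, 920 lower and 9 pathway genes higher. Leaving out an array in the test across lines leaves 0 residual degrees of freedom and was not run. No error can be given for the IL-32γ difference of a single line.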
